A study of Mus musculus with 13 samples.

Results

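The genes of this report encode the contractile proteins, calcium-handling proteins, energy enzymes and hormones of striated muscle, that is, of skeletal muscle and heart. A fixed set of 38 gene symbols was looked up in the array values of dissected mouse aorta, and all 38 were found among the 21225 features measured. By where each gene is best known to be active in the adult, 19 members were counted as skeletal, 9 as cardiac and 10 as shared between heart and skeletal muscle, often its slow fibres. No measured value entered that choice, although earlier results of these data were known when it was made.

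Aortic RNA of male C57BL/6 mice was hybridised to 13 arrays, and each feature has 1 normalised log2 value per array. Young mice were 3 to 4 months old by the design text, or 3 months by the extraction protocol, and aged mice were 12 months old. MR-intact mice, labelled wild type, kept the mineralocorticoid receptor, through which the hormone aldosterone acts. Knockout mice lacked it, in smooth muscle cells only according to the design text, and no source used here names the Cre line or promoter. MR-intact aorta was measured on 3 young and 4 aged arrays, and knockout aorta on 3 young and 3 aged arrays. The study asked how aging alters vascular mRNA with and without the receptor. The labels do not say that each array was a separate animal, so the p-values measure the spread between these arrays, which may be technical.

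The aorta is a smooth muscle vessel, and its contractile cells use Myh11, Acta2 and Tagln in place of the striated sarcomere. Striated muscle is built of repeating sarcomeres in which myosin pulls on actin, and troponin and tropomyosin gate the actin filament by calcium. Titin acts as a spring of the sarcomere, and nebulin runs along the actin filament. Fast skeletal fibres, slow skeletal fibres, cardiac atria and cardiac ventricles each use their own versions of these proteins. The root of the aorta leaves the heart, and the vessel runs beside skeletal muscle along the spine and through the diaphragm.

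On these arrays the defining smooth muscle markers were high throughout: Myh11 lay between 11.27 and 12.15 and Acta2 between 12.36 and 13.03 on the log2 scale. Nr3c2, the gene of the receptor, averaged 6.66 ± 0.04 (SD, n = 3) in young MR-intact aorta and 6.26 ± 0.17 (n = 3) in young knockout aorta, then 7.01 ± 0.21 (n = 4) in aged MR-intact and 6.31 ± 0.24 (n = 3) in aged knockout aorta. Its arrays did not overlap between genotypes at either age, but neither difference passed the threshold (limma adjusted p = 1.0 in young and 0.0599 in aged aorta). The array medians lay between 5.85 and 5.97. Array signal cannot be compared between different genes, so each gene was set against its own median over the 13 arrays. That deviation, on the log2 scale, is the array level used here, and a difference of 1 is a factor of 2.

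Several members have promoters that bear a CArG box, the element bound by serum response factor, which serves striated and smooth muscle alike. RefSeq promoter windows of 300 bases on GRCm38.p6, from 250 before to 50 after the start, were found for 33 of the 38 members and none was found for Actn3, Neb, Sln, Tnni2 and Tnnt3. A CArG box on either strand was present in 5 of the 33 members and in 1.63% of all 32851 windows of this length. The 120 bases before the start of these 5 genes are shown. These genes include skeletal and cardiac ones that varied widely between arrays and 1, Myl3, that varied less. The Myl3 range of 0.96 was still above the median range of all features, 0.51. Capitals mark the CArG box.

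Acta1 (chr8:123894776-123894895, minus strand): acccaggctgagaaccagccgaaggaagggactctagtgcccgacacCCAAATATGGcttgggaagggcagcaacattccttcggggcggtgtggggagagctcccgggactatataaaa
Myh4 (chr11:67237692-67237811, plus strand): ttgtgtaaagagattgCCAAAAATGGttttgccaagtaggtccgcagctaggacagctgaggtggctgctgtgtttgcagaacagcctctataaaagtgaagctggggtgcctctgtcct
Actc1 (chr2:114052876-114052995, minus strand): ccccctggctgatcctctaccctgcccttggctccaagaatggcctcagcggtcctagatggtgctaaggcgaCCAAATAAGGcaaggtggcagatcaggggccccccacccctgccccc
Myl7 (chr11:5898783-5898902, minus strand): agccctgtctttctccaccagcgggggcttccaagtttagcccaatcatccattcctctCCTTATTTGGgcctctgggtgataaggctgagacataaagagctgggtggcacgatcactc
Myl3 (chr9:110763558-110763677, plus strand): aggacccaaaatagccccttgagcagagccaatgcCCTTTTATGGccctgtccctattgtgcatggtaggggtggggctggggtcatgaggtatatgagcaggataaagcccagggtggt

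The box began 73 bases before the start in Acta1, 104 in Myh4, 47 in Actc1, 61 in Myl7 and 85 in Myl3. None of these boxes overlapped a match to another motif searched. The MEF2 motif CTANNNNTAG, for another muscle regulator, was found in 2 of the 33 members, Ttn and Mybpc3, against 3.69% of all windows. The E-box CANNTG, bound by myogenic factors among many others, was found in 29 of the 33 members and in 72.3% of all windows. TATAAA was found in 11 of the 33 members and in 13.6% of all windows. Some members have more than 1 window, and the shares of all windows count single windows. Of the 40 member windows, 5 held a CArG box, 2 the MEF2 motif, 35 an E-box and 11 TATAAA. All motifs were searched on both strands, and a match is a match of letters and not a shown binding site.

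The members were among the most variable features of these arrays. Their median range over the 13 arrays was 3.34 on the log2 scale, against 0.51 for all features. Their median SD within groups was 0.92, against 0.13 for all features, and 27 of the 38 members lay in the top 1% of all features by that SD. Young MR-intact replicate 1 held the highest value of 29 members and young MR-intact replicate 2 that of 5 more. Tnni1 and Casq1 were highest on young knockout replicate 3, Nppa on young knockout replicate 2 and Nppb on young knockout replicate 1.

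**Figure D1:**
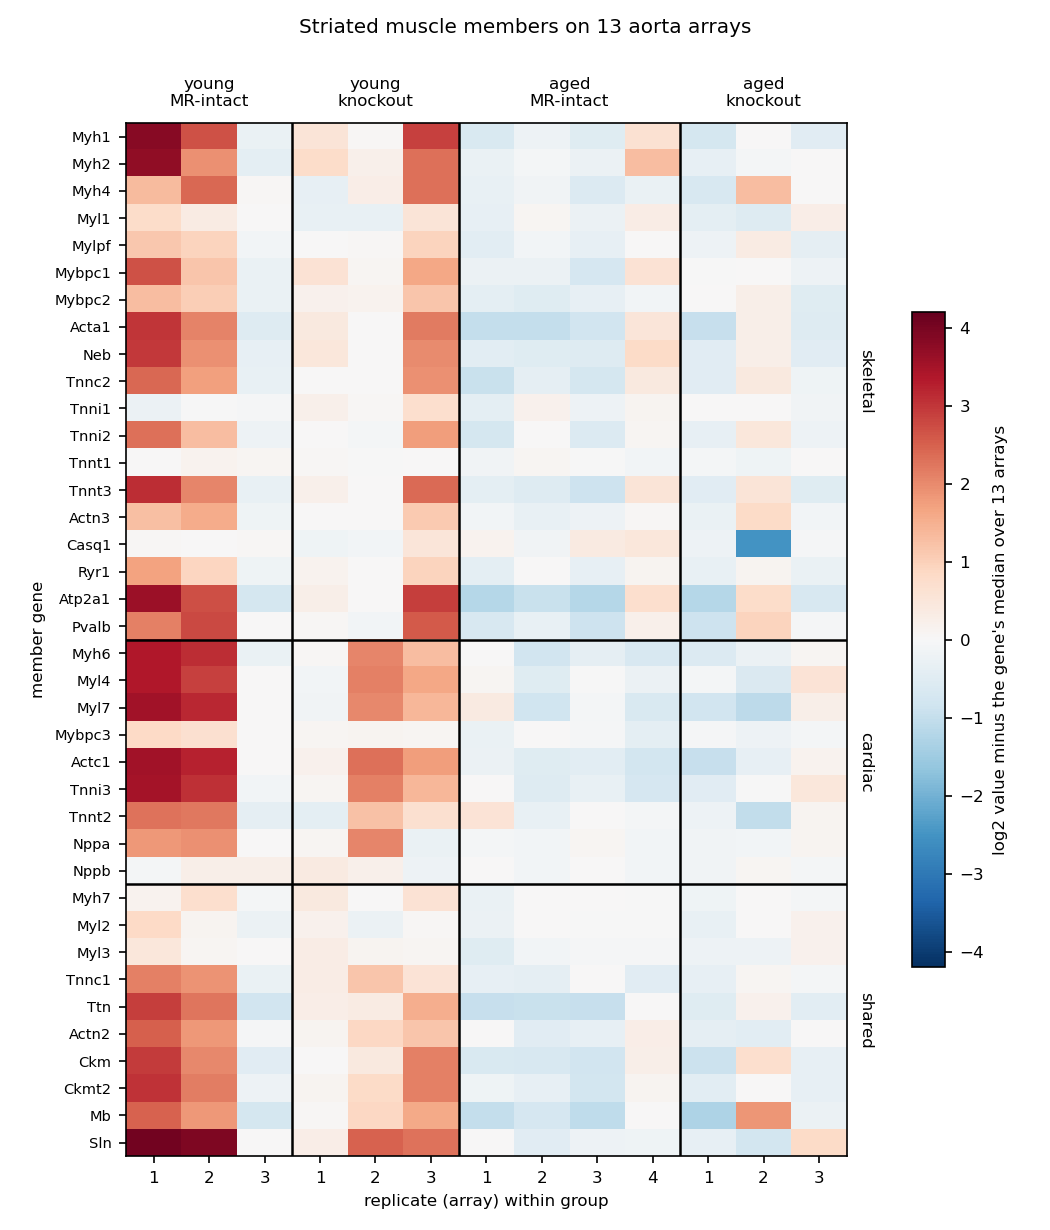
Each cell is the log2 value of 1 member (rows, grouped into skeletal, cardiac and shared) on 1 array (columns, by group and replicate) minus that gene's median over the 13 arrays. Young MR-intact replicates 1 and 2 are high in most rows, young knockout replicate 3 in the skeletal rows and most cardiac rows, and young knockout replicate 2 in the cardiac rows.

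The skeletal and cardiac classes did not follow the same arrays. The median deviation of the skeletal members was 2.13, 1.55 and -0.21 on young MR-intact replicates 1 to 3 and 0.14, 0.00 and 1.75 on young knockout replicates 1 to 3. The median deviation of the cardiac members on the same arrays was 3.35, 2.88 and 0.00, then 0.07, 2.05 and 1.28. Young knockout replicate 2 thus carried a raised cardiac level with no raised skeletal level: 7 of 9 cardiac and 0 of 19 skeletal members lay more than 1 above their own median there. Young knockout replicate 3 was raised in both classes, with 13 of 19 skeletal and 5 of 9 cardiac members more than 1 above. Young MR-intact replicate 3 and young knockout replicate 1 had no member that far above its median.

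Aged arrays were low in both classes, with small differences. The skeletal medians were -0.41, -0.20, -0.52 and 0.30 on the 4 aged MR-intact arrays and -0.36, 0.26 and -0.21 on the 3 aged knockout arrays. The cardiac medians were 0.00, -0.50, -0.05 and -0.42, then -0.21, -0.24 and 0.13. Aged MR-intact replicate 4 and aged knockout replicate 2 had the highest skeletal levels among aged arrays, and neither had a raised cardiac level. The shared members lay between the classes or close to them, at 2.50, 1.86 and -0.21 on young MR-intact, 0.24, 0.61 and 1.34 on young knockout, -0.31, -0.43, -0.27 and -0.01 on aged MR-intact and -0.37, 0.00 and -0.09 on aged knockout arrays. No test was run on these array levels.

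**Figure D2:**
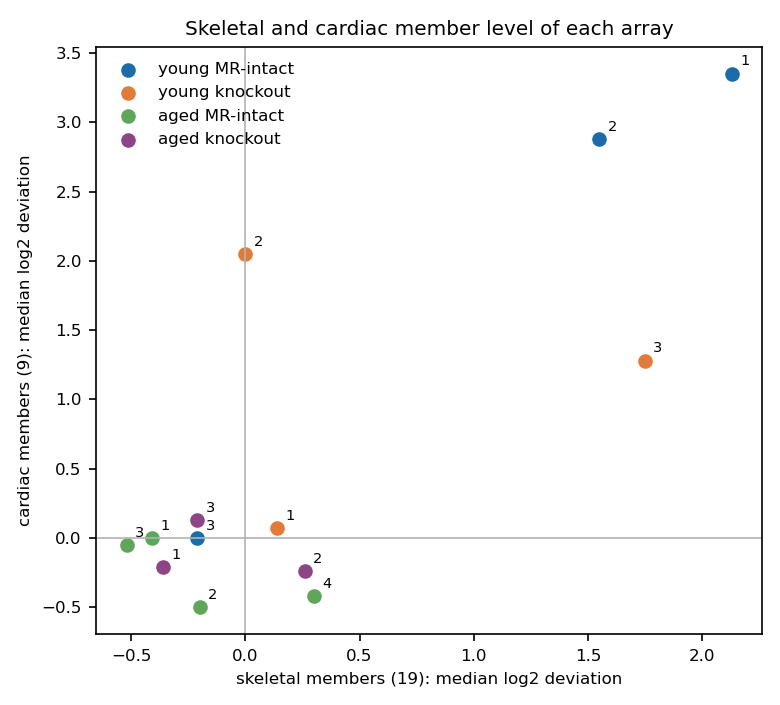
Median log2 deviation of the 19 skeletal members (x axis) and of the 9 cardiac members (y axis) on each of the 13 arrays, coloured by group and numbered by replicate. Young MR-intact replicates 1 and 2 lie high on both axes, young knockout replicate 2 at 0.00 and 2.05, young knockout replicate 3 at 1.75 and 1.28, and the aged arrays near the origin.

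Averaged by group, the array-to-array spread in young aorta was close in size to the levels themselves. In MR-intact aorta the skeletal level averaged 1.16 ± 1.22 (SD, n = 3) in young and -0.21 ± 0.36 (n = 4) in aged mice, and in knockout aorta 0.63 ± 0.97 (n = 3) and -0.10 ± 0.32 (n = 3). In the same order the cardiac level averaged 2.08 ± 1.81, -0.24 ± 0.25, 1.13 ± 1.0 and -0.11 ± 0.21. The shared level averaged 1.38 ± 1.42, -0.26 ± 0.18, 0.73 ± 0.56 and -0.15 ± 0.19. In bulk tissue, fewer cells that carry these RNAs and less RNA per such cell cannot be told apart. Which cells carried them was not tested.

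Below, values are log2 levels in replicate order. Among the skeletal motor proteins, Myh4, the myosin heavy chain of the fastest fibres, measured 5.55, 6.64 and 4.26 in young MR-intact and 3.89, 4.49 and 6.55 in young knockout aorta. It measured 3.90, 4.08, 3.64 and 3.94 in aged MR-intact and 3.56, 5.52 and 4.23 in aged knockout aorta. Myh4 was high on 3 young arrays and on aged knockout replicate 2, and the aged MR-intact arrays all lay below the young MR-intact arrays. The heavy chains of other fast fibres, Myh1 and Myh2, ranged over 4.55 and 4.12. Probes for Myh1, Myh2 and Myh4 may cross-hybridise because the genes are near-identical over long stretches, and so may those of the pairs Myh6 and Myh7 and of the actins Acta1, Actc1 and Acta2, so values within each set are uncertain.

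The fast heavy chains shared their 3 highest arrays, but the order within these differed, as did 2 aged arrays, a detail chosen after the values were seen. Young MR-intact replicate 1 had Myh1 at 7.95 and Myh2 at 8.48, above replicate 2 at 6.8 and 6.68, whereas Myh4 was lower on replicate 1. Actn3, the alpha-actinin of fast fibres, also read higher on replicate 2 than on replicate 1, at 7.36 and 7.05. In aged aorta, MR-intact replicate 4 had Myh2 at 6.05 with Myh4 at 3.94, and knockout replicate 2 had Myh2 at 4.69 with Myh4 at 5.52. The 2 arrays with a modest skeletal level thus showed different heavy chains. With 1 array each, these differences have no replicate check.

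Mylpf, the regulatory light chain of fast muscle, measured 5.10, 4.90 and 3.85 in young MR-intact and 3.96, 4.00 and 4.91 in young knockout aorta. In aged aorta it measured 3.53, 3.85, 3.62 and 3.96 with the receptor and 3.75, 4.31 and 3.58 without it. The same 3 young arrays were high. Myl1, the fast essential light chain, had a smaller range of 1.32, from 8.98 to 10.30, and Mybpc1 and Mybpc2, the slow and fast myosin-binding proteins C, ranged over 3.39 and 1.82.

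Acta1, the skeletal alpha-actin of the thin filament, measured 10.35, 9.41 and 6.79 in young MR-intact and 7.75, 7.35 and 9.54 in young knockout aorta. It measured 6.34, 6.35, 6.52 and 7.85 in aged MR-intact and 6.39, 7.61 and 6.82 in aged knockout aorta. Young MR-intact replicate 3 lay within the aged range, so the groups overlapped. Neb, the nebulin that runs along the thin filament, ranged over 3.50, from 4.62 to 8.12. Young MR-intact replicates 1 and 2 and young knockout replicate 3 were its 3 highest arrays as well.

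Tnnt3, the fast skeletal troponin T that anchors the troponin complex, measured 9.38, 8.34 and 5.96 in young MR-intact and 6.49, 6.27 and 8.64 in young knockout aorta. It measured 5.86, 5.73, 5.41 and 6.81 in aged MR-intact and 5.79, 6.81 and 5.78 in aged knockout aorta. The other fast troponins, Tnnc2 and Tnni2, ranged over 3.38 and 3.06. The slow skeletal troponins T and I had narrower ranges. Tnnt1, the slow skeletal troponin T, measured 4.52, 4.64 and 4.58 in young MR-intact aorta and 4.55, 4.49 and 4.53 in young knockout aorta, then 4.36, 4.57, 4.47 and 4.38 in aged MR-intact and 4.43, 4.31 and 4.50 in aged knockout aorta. Its range of 0.32 was below the median range of all features.

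Tnni1, the slow troponin I, measured 4.48, 4.71 and 4.66 in young MR-intact and 4.94, 4.77 and 5.41 in young knockout aorta. It measured 4.31, 4.90, 4.51 and 4.82 in aged MR-intact and 4.73, 4.72 and 4.57 in aged knockout aorta. Tnni1 was highest on young knockout replicate 3, and the 2 young MR-intact arrays with the most Acta1 were not raised. Tnnt1 read not far above the lower quartile of the arrays, which lay between 3.89 and 4.14, and whether its signal is near background was not tested.

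Atp2a1, the fast calcium pump SERCA1, had the widest range of all members, 4.81. It measured 9.67, 8.79 and 5.34 in young MR-intact aorta and 6.32, 6.07 and 8.98 in young knockout aorta, then 4.89, 5.12, 4.87 and 6.76 in aged MR-intact and 4.87, 6.84 and 5.39 in aged knockout aorta. Aged MR-intact replicate 4 and aged knockout replicate 2 stood above the other aged arrays. Pvalb, the calcium buffer parvalbumin of fast fibres, measured 6.73, 7.38 and 4.6 in young MR-intact aorta and 4.65, 4.50 and 7.17 in young knockout aorta, then 3.92, 4.30, 3.73 and 4.81 in aged MR-intact and 3.74, 5.52 and 4.54 in aged knockout aorta. Pvalb, like Myh4, was higher on young MR-intact replicate 2 than on replicate 1. Ryr1, the calcium release channel, ranged over 2.11, from 4.35 to 6.46.

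Casq1, the calcium store protein of fast fibres, went against the class. It lay between 8.0 and 8.73 on 12 arrays and at 5.71 on aged knockout replicate 2. Of the 3 young arrays rich in Acta1, young MR-intact replicates 1 and 2 read 8.26 and 8.21, like replicate 3 at 8.28, and young knockout replicate 3 held the highest value. Aged knockout replicate 2 also had the lowest Myl1, and its 13 smooth muscle markers had a median deviation of -0.76, against -0.12 to 0.28 on the other 12 arrays. Cnn1 was 10.12 there and 11.42 to 11.92 elsewhere. The same array had a median deviation of 1.24 over 12 liver markers and 0.93 over 12 Schwann and neuronal markers, and the part of either in the member values was not tested.

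Among cardiac motor proteins, Myh6, the alpha myosin heavy chain of the adult mouse heart, measured 8.78, 8.53 and 5.13 in young MR-intact and 5.47, 7.47 and 6.70 in young knockout aorta. It measured 5.42, 4.62, 5.05 and 4.77 in aged MR-intact and 4.83, 5.18 and 5.51 in aged knockout aorta. Young MR-intact replicates 1 and 2 and young knockout replicates 2 and 3 were high, and the other 9 arrays were not. Myl7, the atrial regulatory light chain, measured 9.12, 8.74 and 5.59 in young MR-intact and 5.44, 7.60 and 6.99 in young knockout aorta. It measured 5.98, 4.74, 5.51 and 4.94 in aged MR-intact and 4.78, 4.49 and 5.84 in aged knockout aorta. Myl4, the atrial essential light chain, ranged over 3.96 and Mybpc3, the cardiac myosin-binding protein C, over 1.27.

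Actc1, the cardiac alpha-actin, measured 11.43, 11.15 and 7.91 in young MR-intact and 8.09, 10.22 and 9.66 in young knockout aorta. It measured 7.67, 7.41, 7.46 and 7.14 in aged MR-intact and 6.95, 7.57 and 8.07 in aged knockout aorta. Each young group lay above the aged group of its genotype, by little on its lowest array. Tnnt2, the cardiac troponin T, measured 9.87, 9.81 and 7.21 in young MR-intact aorta and 7.20, 8.84 and 8.27 in young knockout aorta, then 8.17, 7.28, 7.59 and 7.51 in aged MR-intact and 7.38, 6.57 and 7.72 in aged knockout aorta. Its lowest young MR-intact array lay below every aged MR-intact array. Tnni3, the cardiac troponin I, ranged over 4.21, from 5.30 to 9.50.

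Nppa, the atrial natriuretic peptide, measured 6.74, 6.83 and 4.92 in young MR-intact and 5.0, 6.96 and 4.64 in young knockout aorta. It measured 4.83, 4.79, 4.99 and 4.80 in aged MR-intact and 4.77, 4.82 and 5.03 in aged knockout aorta. Nppa was therefore raised on 3 arrays and was at its lowest on young knockout replicate 3, where Myl7 and Myh6 were raised. Nppb, the B-type natriuretic peptide, best known from the ventricle under load, stayed between 4.22 and 4.80 on all 13 arrays.

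The myosin genes Myl2, Myh7 and Myl3 of the shared class varied less than the atrial genes. Myl2 and Myl3 are used in ventricle and slow fibres, and both were highest on young MR-intact replicate 1, at 5.09 and 5.86. Tnnc1, also of heart and slow fibres, was high on the arrays high in the atrial gene Myl7. Tnnc1 read 7.37 and 7.13 on young MR-intact replicates 1 and 2 and 6.41 and 5.82 on young knockout replicates 2 and 3, against at most 5.54 elsewhere. Myl2, the ventricular and slow skeletal regulatory light chain, measured 5.09, 4.36 and 4.03 in young MR-intact aorta and 4.44, 4.02 and 4.29 in young knockout aorta, then 4.00, 4.25, 4.23 and 4.24 in aged MR-intact and 3.95, 4.25 and 4.43 in aged knockout aorta. Only young MR-intact replicate 1 stood apart. Most Myl2 values lay close to the lower quartile of the arrays, 3.89 to 4.14, and whether its signal is near background was not tested. Myh7, the beta heavy chain of slow fibres and the fetal ventricle, measured 5.07, 5.62 and 4.85 in young MR-intact aorta and 5.33, 4.93 and 5.54 in young knockout aorta, then 4.66, 4.93, 4.93 and 4.91 in aged MR-intact and 4.75, 4.93 and 4.84 in aged knockout aorta. Its range was 0.96, the same as that of Myl3, the ventricular essential light chain. For comparison, the atrial genes Myl7, Myl4 and Nppa ranged over 4.62, 3.96 and 2.32, and Sln, which encodes the SERCA inhibitor sarcolipin of atria and some skeletal fibres, over 4.79.

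Sln measured 8.84, 8.73 and 4.80 in young MR-intact and 5.09, 7.29 and 7.08 in young knockout aorta. It measured 4.80, 4.32, 4.58 and 4.61 in aged MR-intact and 4.44, 4.04 and 5.59 in aged knockout aorta. The 4 high arrays were those high in Myh6. On aged knockout replicate 3 Sln was the highest of the aged arrays, and Tnni3 was too.

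Ttn, the giant spring protein of both muscles, measured 8.67, 8.04 and 4.96 in young MR-intact and 6.08, 6.14 and 7.30 in young knockout aorta. It measured 4.83, 4.85, 4.81 and 5.79 in aged MR-intact and 5.28, 5.97 and 5.34 in aged knockout aorta. The aged knockout arrays all lay below the young knockout arrays. Tnnc1, the troponin C of heart and slow fibres, ranged over 2.58 and Actn2, the Z-disc actinin of both muscles, over 3.00.

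Ckm, the creatine kinase of muscle, measured 9.79, 8.88 and 6.38 in young MR-intact aorta and 6.85, 7.26 and 8.96 in young knockout aorta, then 6.21, 6.18, 6.06 and 7.10 in aged MR-intact and 5.95, 7.54 and 6.51 in aged knockout aorta. Its mitochondrial counterpart Ckmt2 ranged over 3.82. Mb, the oxygen-binding myoglobin, measured 9.67, 9.01 and 6.45 in young MR-intact aorta and 7.24, 8.06 and 8.78 in young knockout aorta, then 6.17, 6.46, 6.10 and 7.18 in aged MR-intact and 5.87, 9.03 and 6.92 in aged knockout aorta. Mb was the one shared member more than 1 above its median on an aged array, aged knockout replicate 2.

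**Figure D3:**
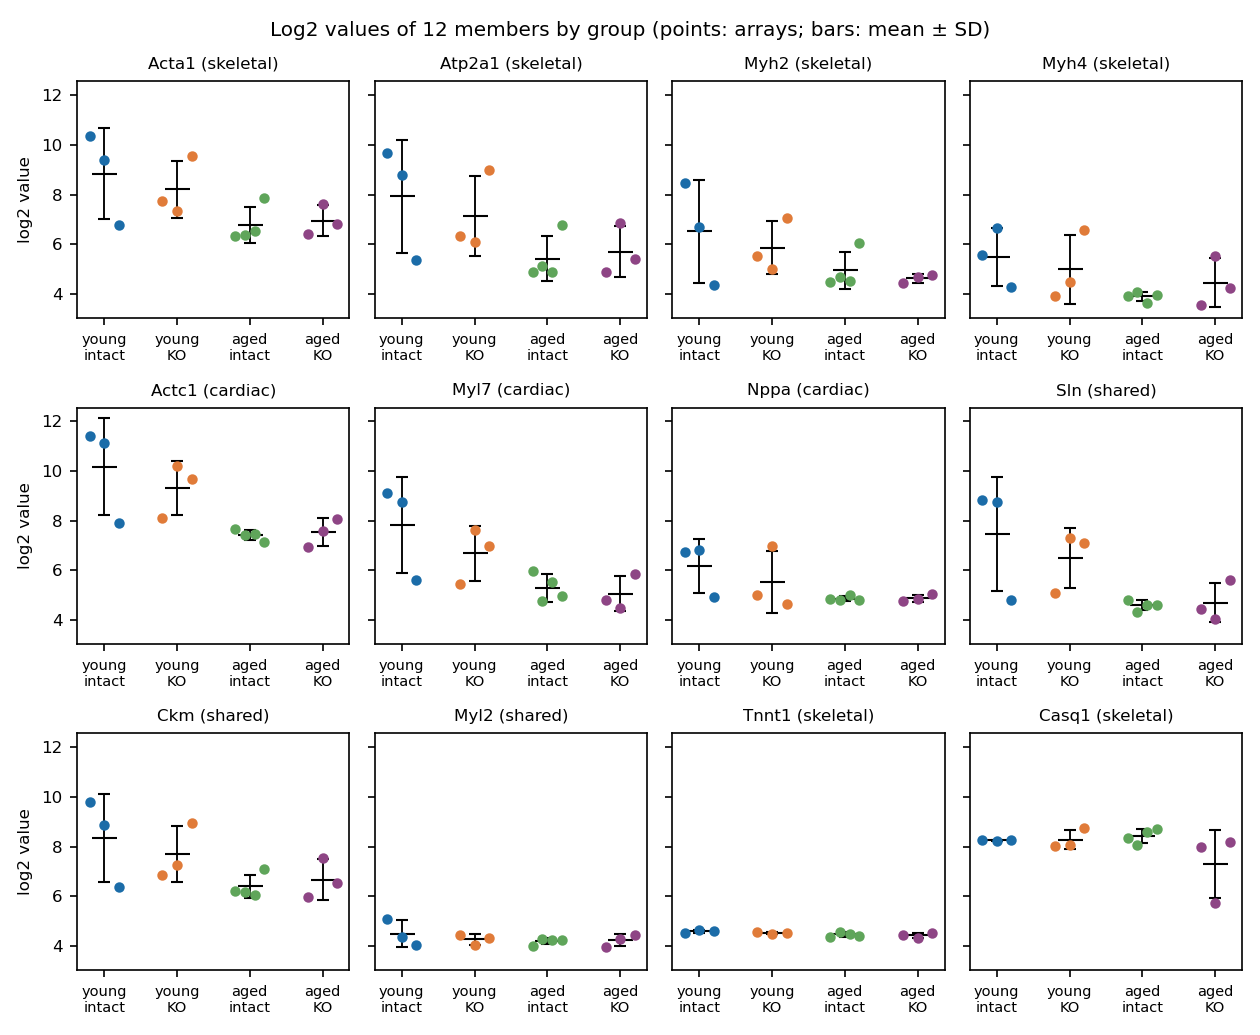
Log2 values (y axis) of 12 members on every array by group (x axis; KO, knockout), with points for arrays and bars for the mean ± SD. Skeletal genes such as Acta1 are high on 3 young arrays, Actc1, Myl7 and Sln on 4 and Nppa on 3, while Tnnt1 stays between 4.31 and 4.64 and Casq1 reads 5.71 on 1 aged knockout array.

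The first comparison asked whether the members changed with age in MR-intact aorta. No member passed the threshold of an adjusted p under 0.05 over all 21225 features (limma with Benjamini-Hochberg adjustment), where 0.236% of all features did. The median log2 change from young to aged was -1.57 over the 38 members, against 0.01 over all features, and 36 of the 38 changes were negative. By class the medians were -1.45 for skeletal, -2.26 for cardiac and -1.73 for shared members. At an unadjusted p under 0.05, 30 members were lower in aged aorta and 0 higher, where 4.14% of all features were lower and 8.63% differed in either direction.

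Mybpc3 had the lowest adjusted p of the members, 0.171, with a log2 change of -0.69 (SE 0.17). Sln had the largest change, -2.88 (SE 0.84, limma adjusted p = 0.288), followed by Actc1 at -2.75 (SE 0.72, adjusted p = 0.209). The arrays of both ages did not overlap for Myh4, Actc1, Myl3 and Sln, all lower in aged aorta, against 4.8% of all features lower and 10.9% in either direction. For Myh4, Actc1 and Sln the two-sided exact permutation test gave p = 0.0286, the smallest that 3 against 4 arrays allow. Acta1 had p = 0.0857 and Atp2a1 p = 0.114 by the same exact test, neither adjusted over the members. Tnnt1 at -0.14 (SE 0.07), Tnni1 at 0.02 (SE 0.16) and Casq1 at 0.17 (SE 0.45) had small changes. In the authors' deposited table, 28 of the 38 members had an unadjusted p under 0.05 for this comparison, as did 11.6% of all features.

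The result depended on which young MR-intact arrays were used. Without replicate 3, the array low in the members, 13 members were lower in aged aorta at an adjusted p under 0.05, where 0.49% of all features were called. They were Mybpc2, 7 of the 9 cardiac members (Myh6, Myl4, Myl7, Mybpc3, Actc1, Tnni3 and Tnnt2) and Tnnc1, Ttn, Actn2, Ckmt2 and Sln. Without replicate 1 the class medians were -0.81 for skeletal, -1.62 for cardiac and -1.17 for shared members, and without replicate 2 they were -1.36, -1.86 and -1.47. Without both, a setting added after seeing the data that leaves 1 young MR-intact array, they were -0.02, -0.18 and 0.00 and no member was called. With arrays weighted by their fit, Myh6, Mybpc3, Actc1, Tnni3, Tnnc1 and Sln were called lower, where 2.3% of all features were called.

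In knockout aorta the members were also lower on average in aged aorta, without passing the test. No member passed the threshold, where 0.735% of all features did, and all 38 changes were negative with a median of -0.85. The class medians were -0.73 for skeletal, -1.22 for cardiac and -0.88 for shared members, against 0.00 for all features. At an unadjusted p under 0.05, 2 members differed, Actc1 at -1.80 (SE 0.77) and Myh7 at -0.43 (SE 0.18), and 15.8% of all features did. Actc1 had the lowest adjusted p of the members by limma, 0.275. Arrays did not overlap between ages for 10 members, all lower in aged aorta. Of all 21225 features, 1778 were lower without overlap, and 16.4% did not overlap in either direction. With 3 against 3 arrays, the exact permutation test cannot go below p = 0.1, which Actc1, Ttn and Tnni1 reached.

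Single young knockout arrays moved these medians class by class. Without replicate 3 the skeletal median was -0.22 and the cardiac median -1.11. Without replicate 2 the skeletal median was -1.06 and the cardiac median -0.75. In the aged knockout group the B lymphocyte and plasma cell markers had a median deviation of 3.17, 1.37 and 1.13, and on young knockout replicate 3 it was 1.13, against at most 0.10 on the other 9 arrays. Its part in the member values was not tested.

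**Figure D4:**
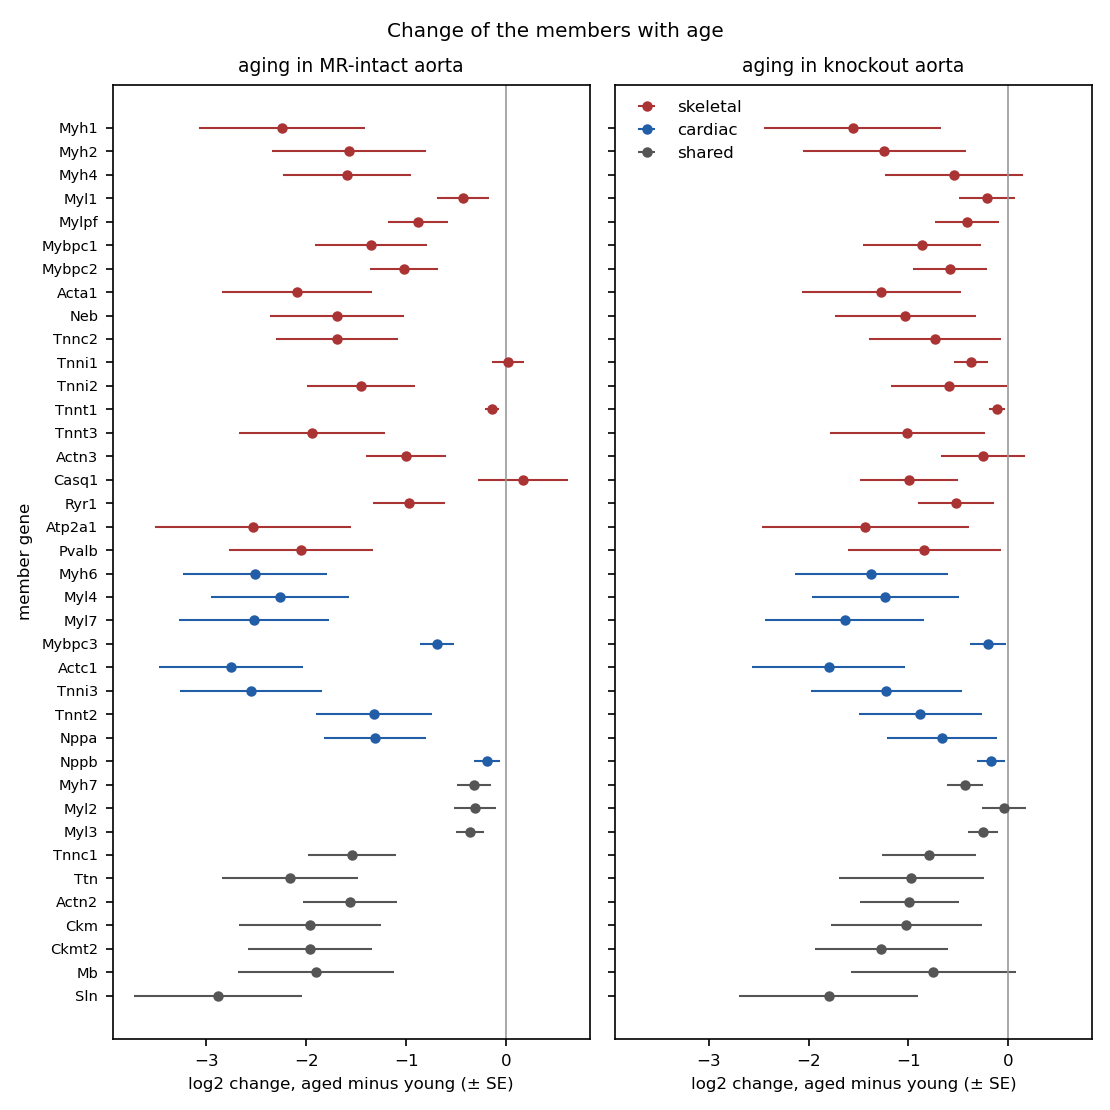
Log2 change from young to aged aorta (x axis, with the SE from limma) of each of the 38 members (y axis, coloured by class) in MR-intact aorta (left) and knockout aorta (right). All but Tnni1 and Casq1 lie below 0 on the left and all lie below 0 on the right, and none passed the threshold in either.

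Knockout against MR-intact in young aorta showed no member past the threshold, and 0.0% of all features were called. The log2 changes had a median of -0.63 and 35 of 38 were negative, with class medians of -0.51, -0.86 and -0.61 for skeletal, cardiac and shared members. At an unadjusted p under 0.05, Tnni1 was higher by 0.42 (SE 0.17) and Mybpc3 lower, at -0.42 (SE 0.18), with limma adjusted p = 1.0 for both, where 2.59% of all features passed. Tnni1 was also the one member without overlap between the groups, against 9.48% of all features. Without young MR-intact replicate 1 alone, 21 of the 38 values were negative and the class medians were 0.01, -0.28 and 0.04. Without young MR-intact replicates 1 and 2 the class medians turned to 0.78, 1.09 and 1.09. This comparison shares its arrays with both aging comparisons, so their values are not independent.

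Knockout against MR-intact in aged aorta likewise showed no member past the threshold, where 0.0565% of all features were called. The median log2 change was 0.10, with 28 positive and 10 negative values. That split was not stable: 18 values were negative after a second quantile normalization, 16 with each array centred on its median and 19 without aged knockout replicate 2. Casq1, at -1.13 (SE 0.45, limma adjusted p = 0.220), was the one member with an unadjusted p under 0.05, against 17.6% of all features, and the difference lay on the single array described above. Mb had the largest positive change, 0.80 (SE 0.78), from the same array. No member's arrays were free of overlap, whereas those of 10.4% of all features were.

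The difference of aging between genotypes was tested as an interaction. No member passed the threshold, and 0.0% of all features did. None had an unadjusted p under 0.05, against 8.12% of all features, and the lowest adjusted p was 0.612 for Mybpc3 (limma). The interaction values ran from -1.16 (SE 0.66) for Casq1 to 1.34 (SE 1.04) for Tnni3, with a median of 0.68. The SE reached 1.43 for Atp2a1, and the value of Tnni3 had an unadjusted p of 0.223 by limma. At SEs of this size, differences of 1 or somewhat more on the log2 scale in the variable members could not be told from array spread.

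Other genes of the same tissues were read from further lists. Of 30 other skeletal muscle genes, 0 passed the threshold for aging in MR-intact aorta, with a median of -0.27. At an unadjusted p under 0.05, 10 were lower and 1 was higher, Tcap at 0.80 (SE 0.28). Among all features, 4.14% were lower at that p. Myot, a Z-disc protein, had a log2 change of -1.77 (SE 0.79) and Pgam2, a muscle glycolytic enzyme, -1.37 (SE 0.44). Of 22 other cardiac genes 0 passed and 10 were lower at that p, with a median of -0.41. Kcnj3, an atrial potassium channel subunit, had a change of -1.74 (SE 0.50) and Csrp3, a muscle LIM protein, -1.56 (SE 0.37). Of 23 other genes of both muscles 0 passed and 12 were lower, with a median of -0.48, including Smpx at -2.08 (SE 0.68) and Xirp2 at -1.69 (SE 0.67).

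Part of these lists was high on the arrays where the members were high. On young MR-intact replicate 1, 7 of 30 skeletal, 10 of 22 cardiac and 7 of 23 shared list genes lay more than 1 above their own median, and on replicate 2 it was 4, 5 and 4. Young knockout replicate 2 had 0, 1 and 1 such genes, the cardiac one being Kcnj3, and a median deviation of 0.20 over the cardiac list. Young knockout replicate 3 had 5, 0 and 3, and no aged array had any. Myot measured 7.78, 6.56 and 3.90 in young MR-intact and 4.88, 4.76 and 7.18 in young knockout aorta, the skeletal pattern. Kcnj3 measured 6.52, 6.29 and 3.93 in young MR-intact and 4.08, 5.31 and 4.90 in young knockout aorta, the cardiac pattern. In the young genotype comparison the largest differences within the skeletal list were those of Eno3 and Pgam2 (both -0.55). In the cardiac list they were Pln (-0.88) and Lmod2 (-0.87), and in the shared list Smpx (-0.93) and Xirp2 (-0.80), none past the threshold.

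Regulators of muscle formation and genes of the nerve-muscle junction had small changes. The 14 myogenic regulators and satellite cell genes had a median change of 0.00 with age in MR-intact aorta, and the 10 neuromuscular junction genes -0.01, with 0 called in either list and 1 lower at an unadjusted p under 0.05 in each. Among all features, 4.14% were lower at that p. Des, desmin, had the largest change, -0.62 (SE 0.14, limma adjusted p = 0.120), and it is also a smooth muscle gene. Myf6, a myogenic factor of mature fibres, had -0.33 (SE 0.21), Rapsn, a receptor-clustering protein, -0.16 (SE 0.07) and Chrna1, an acetylcholine receptor subunit, 0.12 (SE 0.07). In the young genotype comparison Chrng had a change of 0.22 (SE 0.13) and Chrnd 0.18 (SE 0.10). On no array did any of these 24 genes lie more than 1 above its own median, and the highest deviation was 0.96. Myf6 was still highest on arrays with a raised skeletal level. It read 4.87 and 4.33 on young MR-intact replicates 1 and 2 and 4.40 on young knockout replicate 3, against at most 4.24 elsewhere. Some of these genes read near or below the lower quartile of the arrays, 3.89 to 4.14, and whether their signal is near background was not tested.

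Markers of other cell types were read on the same arrays. The 13 smooth muscle markers had 0 called with age in MR-intact aorta and a median of 0.12. Of 12 fibroblast markers, Col1a1 (-1.08), Col1a2 (-0.71) and Fbln1 (-0.52) fell with age in MR-intact aorta. In knockout aorta Col1a1 (-1.15), Col1a2 (-0.97), Fbln1 (-0.83), Pi16 (-0.91) and Clec3b (-0.46) fell with age. Also in knockout aorta, Ighm, an immunoglobulin heavy chain, rose with age by 2.31 and S100b, a Schwann cell gene, by 1.03. No gene passed in the endothelial, macrophage, adipocyte, liver and erythroid lists in either aging comparison. In the brown adipocyte list, Ucp1 read 12.32 to 12.75 over the 13 arrays and Zic1 3.57 to 3.94. The 5 erythroid markers had a median deviation of 0.56 on young MR-intact replicate 1, against at most 0.20 on the other arrays. The part of fat or blood in the member values was not tested. Of 12 endothelial markers, 7 were lower with age in MR-intact aorta at an unadjusted p under 0.05, with a median of -0.22, and 4 in knockout aorta, with a median of -0.23. Among all 21225 features, 879 were lower at that p in MR-intact aorta and 1435 in knockout aorta.

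Some neuronal markers were high on most arrays with a raised skeletal level, which was noticed after the values were seen. Dbh, the enzyme that makes noradrenaline, measured 6.45, 6.61 and 4.48 in young MR-intact and 5.44, 4.94 and 6.70 in young knockout aorta. It measured 3.97, 4.12, 3.92 and 3.83 in aged MR-intact and 4.02, 6.74 and 4.16 in aged knockout aorta. Th, the first enzyme of catecholamine synthesis, and Snap25, a synaptic vesicle fusion protein, were also highest on young MR-intact replicates 1 and 2, young knockout replicate 3 and aged knockout replicate 2. Aged MR-intact replicate 4 had the highest skeletal level of the aged arrays, 0.30, but the lowest Dbh and Th, at 3.83 and 4.33, and Snap25 at 4.77. Other markers of the list did not all follow: Ncam1 was lowest on aged knockout replicate 2, at 9.06. With age in MR-intact aorta Dbh had a log2 change of -1.89 (SE 0.66), Th -1.01 (SE 0.59) and Snap25 -0.99 (SE 0.58), none past the threshold. Over the 12 Schwann and neuronal markers the median change was -0.15, with 0 called, 1 higher and 1 lower at an unadjusted p under 0.05. Among all features, 8.63% differed at that p. The part of such cells in the member values was not tested.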

How the data were processed

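The authors deposited log2 expression values, 1 for each Entrez gene and array, per the submitters' processing notes, which name RMA, a method that corrects background, equalises the arrays and merges a gene's probes, beside affy and limma. No source used here gives tool versions, the array platform or a genome build. Per the file headers, the deposited table also holds the authors' fold change (a score whose minus sign marks a lower first group) with its raw p-value, which were used here only as a count. A second deposited table holds the same log2 values within 0.005.

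All 21225 features were fitted as deposited with limma 3.58.1 in R 4.3.3, with 13 arrays in 1 model and 1 coefficient per group (9 residual and 3.41 prior degrees of freedom). Adjusted p-values are Benjamini-Hochberg over all features, with a threshold of 0.05, and the fit was tested on simulated data. The number of arrays limits the precision. Single members were tested by two-sided exact permutation of the group means, not adjusted over the members. RefSeq names of GRCm38.p6 were found for 20768 features, and 457 kept the deposited name.

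The members, their classes and all gene lists were chosen with earlier results of these data known. The 19 members with values on every array were picked by role; the others are given by range, and called genes of other lists are named, or otherwise the largest changes of each muscle list. For lists of other cell types the rule was narrowed to called genes, and Dbh, Th, Snap25, Tcap, Ucp1 and Zic1 were added after their values were seen. One gene that met the rule is not reported here. In the sample titles, the letter A marks every aged array and B every young array, so what it stands for cannot be told apart from age. Alternatives were a second quantile normalization, the second table, centred arrays, array weights, a filter on dim features, fits of the groups compared alone, a title-number block and leaving out arrays.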

Additional observations from a re-analysis of the deposited data

Results flagged for a closer look

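In the 4 aged MR-intact arrays, 9 of the 38 members had 1 array far from the other 3 by Dixon's test. The nominal rate of that test is about 1 in 20 groups, or 1.9 of 38. The share of all features flagged on these arrays is not given, so the count cannot be called particular to the members. Replicate 4 was far above the others in 6 of them: Myh2 at 6.05, Acta1 at 7.85, Neb at 5.96, Atp2a1 at 6.76, Ttn at 5.79 and Ckm at 7.10. These are skeletal or shared genes, and the cardiac members of that array had a median deviation of -0.42. Replicate 1 was far below the others in the remaining 3, all myosin genes of the shared class: Myh7 at 4.66, Myl2 at 4.00 and Myl3 at 4.90. The members share arrays, so these are not independent flags, and groups of 3 arrays were not tested this way.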

How the results depend on the processing

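No member was called in any comparison under the alternatives run, except in aging in MR-intact aorta, where array weights called 6 and leaving out single arrays called 0 to 13, the 13 without young MR-intact replicate 3. Leaving out both young MR-intact replicates 1 and 2, added after seeing the data, moved the skeletal, cardiac and shared medians to -0.02, -0.18 and 0.00 for aging in MR-intact aorta and to 0.78, 1.09 and 1.09 for knockout against MR-intact in young aorta. That setting also turned the sign of aging in MR-intact aorta for 14 of the 38 members, among the 19 given on every array for Atp2a1 (0.06), Tnnt2 (0.43), Myh7 (0.01), Myl2 (0.15), Ttn (0.10), Ckm (0.01), Mb (0.03) and Tnni1 (-0.02). Tnni1, at 0.02 as reported, was 0.00 with each array centred on its median, -0.06 with array weights, -0.04 with the replicate block and -0.07 to 0.13 without single arrays. Title numbers shared by aged and young MR-intact arrays do not pair them: deviations of same-numbered arrays correlated at -0.07, 0.04 and 0.08. With the numbers as a replicate block in aging in MR-intact aorta, 0 members and 1 of all features were called, and the class medians were -1.60, -2.23 and -1.90. Young MR-intact replicates 1 and 2 held most of the highest member values and replicate 3 was low, so leaving these arrays out shifted the young mean. Why these arrays differed was not tested. The other changes above are unexplained and their cause was not tested, beyond the smaller number of arrays. A filter on dim features left 32 of the 38 members.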
